A study of Mus musculus with 12 samples.

Results

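The genes described here are 7 markers of striatal medium spiny neurons, taken from the table of raw counts by their symbols: Drd1, Drd2, Adora2a, Rgs9, Pde10a, Pde1b and Ppp1r1b. All 7 symbols were found, among 24421 genes, in libraries of mouse hippocampus, a region that contains no medium spiny neurons. Their level in each library was read as a measure of tissue carried along in the dissection or of expression that hippocampal neurons share with the striatum. The samples were hippocampi of 2-month-old mice that had all received injections of BrdU, a thymidine analogue taken up by dividing cells. There were 12 libraries, 3 biological replicates for each of 4 genotypes: WT, 5xFAD, p75NTRko and 5xFAD/p75NTRko. The 5xFAD mice carry transgenes that model familial Alzheimer's disease, expressed in neurons from a Thy1 promoter. The other allele, p75NTRko, is labelled as a knockout of Ngfr, the gene of the neurotrophin receptor p75NTR. The labels give neither strain nor sex, and do not say whether a replicate is 1 animal.

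Medium spiny neurons are the inhibitory projection neurons that make up most of the striatum, and they receive dense dopamine input from the midbrain. Those of the direct pathway carry the dopamine receptor Drd1, which raises cyclic AMP, and those of the indirect pathway carry the dopamine receptor Drd2, which lowers it, together with the adenosine receptor Adora2a, which raises it. Rgs9 ends G protein signalling, Pde10a and Pde1b break cyclic nucleotides down, and Ppp1r1b encodes DARPP-32, which inhibits protein phosphatase 1 once protein kinase A has phosphorylated it. Several of these genes are also used outside the striatum: dopamine and adenosine receptors act in hippocampal circuits, Pde1b is found in dentate granule cells, and DARPP-32 is also found in choroid plexus epithelium.

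The library kit samples polyadenylated RNA near its 3′ end, so a marker's annotated 3′ end is where its reads would be looked for. The 30-base windows below are shown because 3 of them belong to markers that were counted and 1 belongs to Drd2, which was not. They come from the GENCODE M21 annotation on GRCm38, each lies in the 3′ untranslated exon within the last 50 bases of the transcript, and each is written 5′ to 3′ on the gene's own strand with the hexamer AATAAA in capitals. The windows are Drd1 at chr13:54051195-54051224 on the minus strand, Drd2 at chr9:49408141-49408170, Adora2a at chr10:75334751-75334780 and Ppp1r1b at chr11:98357767-98357796, the last 3 on the plus strand.
Drd1: acataaAATAAAattattttgtgaattcaa
Drd2: caaaccAATAAAaccttgacaagagtcatt
Adora2a: agataaAATAAAatgagccacactgtgttt
Ppp1r1b: ctacgctgtAATAAAtctttgtaaataatt
A hexamer AATAAA or ATTAAA, searched on the transcript strand only, lay in the last 50 bases of 6 of the 7 markers, all but Pde10a, and of 14792 of 19917 genes with a transcript end (74.3%). The windows describe the annotation and not the ends used in these mice.

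Depth was 4316739 to 6683613 gene counts per library, so that 3 counts, taken as the limit of detection, stood for 0.449 to 0.695 CPM. The unit CPM is the count of a gene scaled to 1000000 counts of tested genes, with library sizes scaled by TMM, and a 3′ count has no gene-length term. Hippocampal principal neuron markers were all detected (7 of 7 genes, summed level of 564 to 1179 CPM per library). Ngfr counts did not fall with the knockout label: they were higher in each of the 6 libraries labelled as knockout (5.95 to 10.5 CPM) than in each of the other 6 (0.166 to 1.95 CPM). A 3′ count does not check the deletion if it lies outside the deleted part, which the labels do not give, so those libraries are called p75NTRko-labelled and 5xFAD/p75NTRko-labelled below. Thy1, whose promoter drives the transgenes, was at 1596 to 4019 CPM in the 6 libraries labelled 5xFAD or 5xFAD/p75NTRko and at 688 to 939.8 CPM in the rest. Xist, transcribed from the inactive X chromosome, was at 359.7 to 439 CPM in all WT libraries, all 5xFAD/p75NTRko-labelled libraries and p75NTRko-labelled replicate 1, and at 1.53 to 3.58 CPM in the other 5, so that sex and genotype were partly joined.

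The 7 markers did not share 1 level in these libraries. Ppp1r1b and Pde1b were the most abundant, at 41.7 and 39.8 CPM on average over the 12 libraries, and neither was steadily above the other, since Ppp1r1b was the higher in 6 of 12. Pde10a was next (22.4 CPM) and lay below Pde1b in 12 of 12 libraries. Drd1 (9.95 CPM) lay below Pde10a in 10 of 12, and Rgs9 (7.19 CPM) lay below Drd1 in 8 of 12. Adora2a was the lowest marker detected, at 4.04 CPM, and lay below Rgs9 in 12 of 12 libraries. Between every neighbouring pair in this order the ranges over the 12 libraries overlapped. Drd2 had 0 counts in all 12 libraries, 0 of 68625671 gene counts, and 3 counts over the pooled total would be 0.0437 CPM. In this it was like 6146 of 24421 genes (25.2%). Whether the counting missed reads of Drd2 was not tested.

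**Figure D1:**
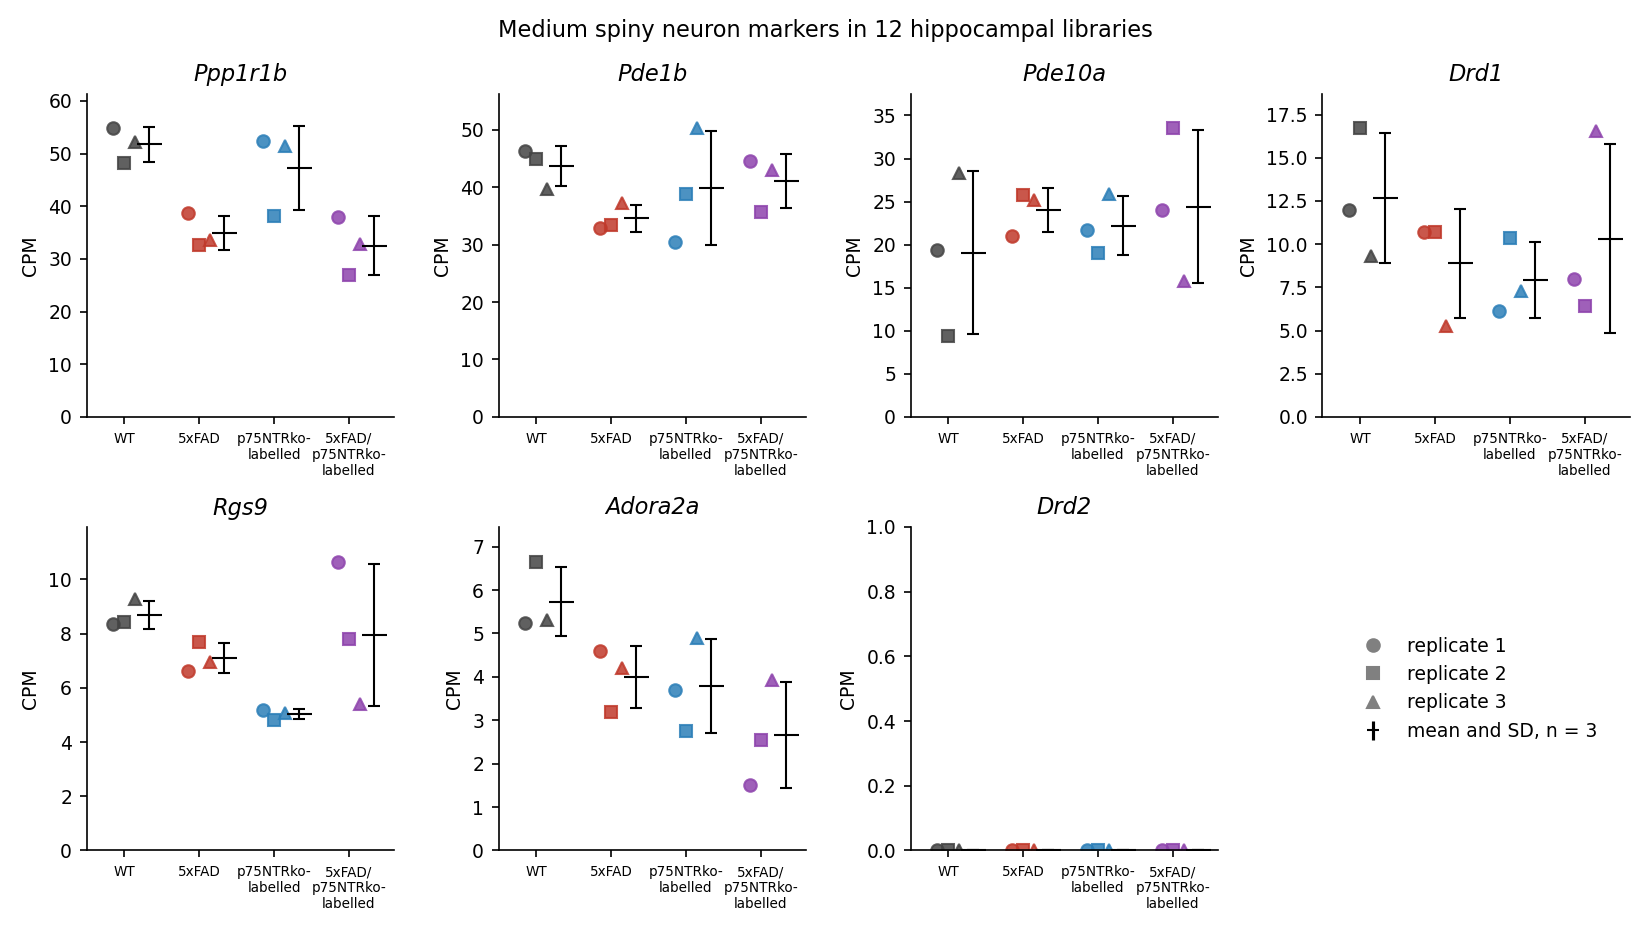
Level of each of the 7 markers in CPM (vertical axis, a linear scale of its own for each gene, starting at 0) in the 12 libraries, grouped by genotype; points are libraries and short bars are genotype means. Drd2 is at 0 throughout. Ppp1r1b is below 39 CPM in all 6 transgene-carrying libraries and in 1 non-carrier, p75NTRko-labelled replicate 2 (38.2 CPM).

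Of the 2 dopamine receptors among the markers, Drd1 was counted in every library and Drd2 in none. Drd1 is at chr13:54051183-54055705 on the minus strand and had 25 to 103 counts per library. It measured 11.95, 16.7 and 9.29 CPM in WT replicates 1, 2 and 3 and 10.7, 10.7 and 5.26 CPM in 5xFAD. It measured 6.12, 10.3 and 7.28 CPM in the p75NTRko-labelled libraries and 7.99, 6.43 and 16.6 CPM in the 5xFAD/p75NTRko-labelled ones. The highest libraries, WT replicate 2 and 5xFAD/p75NTRko-labelled replicate 3, belonged to different genotypes, and every genotype overlapped every other. The log2 fold change was -0.50 (SE 0.353) in 5xFAD against WT and -0.69 (SE 0.358) in p75NTRko-labelled against WT, with adjusted p-values of 0.528 and 0.465 by the quasi-likelihood test of edgeR, adjusted after Benjamini and Hochberg over all 13065 genes tested, which is the test behind every adjusted p-value of a gene below unless DESeq2 is named. Drd2 spans chr9:49340627-49408177 on the plus strand, and with 0 counts it entered no test.

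Adora2a (chr10:75316877-75334784, plus strand) was low in every library, at 9 to 41 counts. It measured 5.23, 6.65 and 5.31 CPM in WT, and 4.58, 3.19 and 4.21 CPM in 5xFAD. It measured 3.71, 2.76 and 4.91 CPM in the p75NTRko-labelled libraries, and 1.499, 2.53 and 3.93 CPM in the 5xFAD/p75NTRko-labelled ones. All 9 other libraries lay below the 3 WT libraries, a pattern shared by 138 of the 13065 genes tested (1.06%). The lowest library rests on 9 counts, whose exact 95% Poisson interval of 4.12 to 17.1 counts stands for 0.685 to 2.85 CPM and covers counting error only. The largest difference was between 5xFAD/p75NTRko-labelled and WT, at a log2 fold change of -1.10 (SE 0.334), and it did not pass after adjustment (adjusted p = 0.425).

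Rgs9 (chr11:109225355-109298129, minus strand) had its tightest group in the p75NTRko-labelled libraries. It measured 8.37, 8.44 and 9.29 CPM in WT and 6.62, 7.70 and 6.94 CPM in 5xFAD. In the p75NTRko-labelled libraries it measured 5.19, 4.83 and 5.05 CPM, and in the 5xFAD/p75NTRko-labelled ones 10.7, 7.80 and 5.41 CPM. All 5xFAD libraries were below all WT libraries (9.02% of genes), while all 5xFAD/p75NTRko-labelled libraries were above all p75NTRko-labelled ones (6.54% of genes). The log2 fold change was -0.79 (SE 0.239) in p75NTRko-labelled against WT (adjusted p = 0.316) and 0.66 (SE 0.242) in 5xFAD/p75NTRko-labelled against p75NTRko-labelled (adjusted p = 0.711). The interaction of transgene and receptor label was 0.95 (SE 0.334, unadjusted p = 0.0124 and adjusted p = 0.427 by edgeR). Xist was high in all WT and 5xFAD/p75NTRko-labelled libraries. It was low in the 5xFAD and p75NTRko-labelled ones, except p75NTRko-labelled replicate 1, so sex and the interaction were largely joined.

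Both phosphodiesterases were present at 9.41 CPM or more in every library, and neither passed a test of genotype. Pde10a, a dual cyclic AMP and cyclic GMP hydrolase (chr17:8525372-8986648, plus strand), measured 19.4, 9.41 and 28.4 CPM in WT and 21.1, 25.7 and 25.2 CPM in 5xFAD. It measured 21.7, 19.1 and 25.9 CPM in the p75NTRko-labelled libraries and 24.0, 33.5 and 15.7 CPM in the 5xFAD/p75NTRko-labelled ones. WT alone covered 9.41 to 28.4 CPM, and the genotypes overlapped throughout (adjusted p = 0.868 for any difference among the 4 genotypes).

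Pde1b, a calcium- and calmodulin-dependent hydrolase (chr15:103503034-103530052, plus strand), measured 46.3, 45.0 and 39.7 CPM in WT and 32.9, 33.4 and 37.2 CPM in 5xFAD. It measured 30.4, 38.9 and 50.2 CPM in the p75NTRko-labelled libraries and 44.5, 35.7 and 43.0 CPM in the 5xFAD/p75NTRko-labelled ones. The 3 5xFAD libraries lay below the 3 WT libraries (9.02% of genes), and the p75NTRko-labelled libraries spread across both. The log2 fold change in 5xFAD against WT was -0.34 (SE 0.159, adjusted p = 0.363). Ppp1r1a ends 226 bases from the end of Pde1b on the other strand, and whether the authors' counting used strand is not given in the sources used here.

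Ppp1r1b had the smallest p-value of the markers in the test of any difference among the 4 genotypes. The gene is at chr11:98348404-98357796 on the plus strand and had 138 to 367 counts per library. It measured 54.8, 48.2 and 52.3 CPM in WT and 38.7, 32.7 and 33.7 CPM in 5xFAD. It measured 52.5, 38.2 and 51.4 CPM in the p75NTRko-labelled libraries and 38.0, 26.9 and 32.8 CPM in the 5xFAD/p75NTRko-labelled ones. The 6 libraries with the transgenes lay at 26.9 to 38.7 CPM (33.8 ± 4.28, SD, n = 6) and the 6 without at 38.2 to 54.8 CPM (49.6 ± 5.98, SD, n = 6). These sets overlapped only through p75NTRko-labelled replicate 2, at 38.2 CPM, and 5xFAD replicate 1, at 38.7 CPM.

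The log2 fold change of Ppp1r1b was -0.56 (SE 0.147) in 5xFAD against WT (adjusted p = 0.187). It was -0.54 (SE 0.148) in 5xFAD/p75NTRko-labelled against p75NTRko-labelled (adjusted p = 0.555), a comparison that shares no library with the first. Against WT, 5xFAD/p75NTRko-labelled gave -0.67 (SE 0.147, adjusted p = 0.213) and p75NTRko-labelled gave -0.12 (SE 0.144, adjusted p = 0.764). The interaction was 0.02 (SE 0.209). With both carrier genotypes set against both others, a comparison added after these values were seen, the log2 fold change was -0.55 (SE 0.104, unadjusted p = 0.000100) and the adjusted p in edgeR was 0.0923, the thirteenth smallest p-value of 13065 genes. DESeq2 gave -0.56 with an adjusted p of 0.00171, edgeR without the filter on low counts an adjusted p of 0.0316, and edgeR without 5xFAD/p75NTRko-labelled replicate 1 a log2 fold change of -0.62 with an adjusted p of 0.0215, so the call depended on the setting.

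The mean Ppp1r1b level was lower in carriers in both Xist classes, but the ranges were separate only among libraries with high Xist. Among these, Ppp1r1b was 26.9 to 38.0 CPM in the 3 carriers and 48.2 to 54.8 CPM in the 4 non-carriers. Among libraries with low Xist, Ppp1r1b was 32.7 to 38.7 CPM in the 3 carriers and 38.2 and 51.4 CPM in the 2 non-carriers, so the ranges overlapped. Within each class the carriers all had the same genotype, so the split by class does not test sex apart from genotype. With Xist class as a term in the edgeR fit, the log2 fold change in carriers was -0.51 (adjusted p = 0.229). Only the p75NTRko-labelled libraries held both classes, so that term rests on replicate 1 against replicates 2 and 3 of that genotype. Carriers and non-carriers each held high-Xist and low-Xist libraries, and without that term the log2 fold change in carriers was -0.55. Sex was largely joined with the interaction of transgene and receptor label, so the fit cannot separate these. A part of sex in the Ppp1r1b difference was not otherwise tested. An opposite-strand gene that overlaps Ppp1r1b, 1700003D09Rik, had 2 counts in all 12 libraries together.

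In each comparison across genotypes, 0 of the 6 tested markers passed an adjusted p of 0.05 in edgeR. In 5xFAD against WT, where 0.0536% of genes passed, 1 marker (Ppp1r1b) had an unadjusted p under 0.05, against 13.9% of all genes, and DESeq2 called 0. In this comparison 4 markers had all 3 5xFAD libraries below all 3 WT libraries (Adora2a, Rgs9, Pde1b and Ppp1r1b), against 9.02% of genes, and the median log2 fold change of the 6 was -0.42 against -0.0036 over all genes. Sex, by Xist, coincided with genotype in 5xFAD against WT, so the 2 cannot be told apart in these values. Those comparisons that use the same WT libraries are not independent of each other.

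In p75NTRko-labelled against WT, 0% of genes passed in edgeR, and DESeq2 called 0 markers. Rgs9 was the 1 marker with an unadjusted p under 0.05 (11.5% of genes), and Adora2a and Rgs9 did not overlap WT and lay below it (8.50% of genes). In 5xFAD/p75NTRko-labelled against WT, 0% of genes passed in edgeR, and Adora2a and Ppp1r1b had unadjusted p under 0.05 (9.95% of genes) and lay below WT without overlap (5.53% of genes). DESeq2 called 1 of the 6 there, Ppp1r1b, with an adjusted p of 0.0238.

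In 5xFAD/p75NTRko-labelled against p75NTRko-labelled, 0% of genes passed in edgeR and DESeq2 called 0 markers. Rgs9 and Ppp1r1b had unadjusted p under 0.05 (6.59% of genes), Rgs9 with all libraries higher (6.54% of genes) and Ppp1r1b with all libraries lower (5.74% of genes). In 5xFAD/p75NTRko-labelled against 5xFAD, 0.0383% of genes passed, and no marker had an unadjusted p under 0.05 (5.08% of genes), a DESeq2 call or a separation without overlap (5.18% of genes lay wholly higher and 6.02% wholly lower). For the interaction, where 0.0383% of genes passed, Rgs9 was the 1 marker with an unadjusted p under 0.05 (9.32% of genes) and DESeq2 called 0.

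In the test of any difference among the 4 genotypes, which 0.0995% of genes passed, 3 markers (Ppp1r1b, Rgs9 and Adora2a) had unadjusted p under 0.05, against 10.4% of genes. DESeq2 called 1 of 6 in that test, Ppp1r1b, with an adjusted p of 0.00509, against 0.137 in edgeR. In carriers against non-carriers, which 0.0153% of genes passed, 2 markers, Ppp1r1b and Adora2a, had unadjusted p under 0.05 (10.3% of genes). In the libraries labelled p75NTRko or 5xFAD/p75NTRko against the rest, which 0.0842% of genes passed, 1 marker, Adora2a, had an unadjusted p under 0.05 (6.30% of genes) and DESeq2 called 0.

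**Figure D2:**
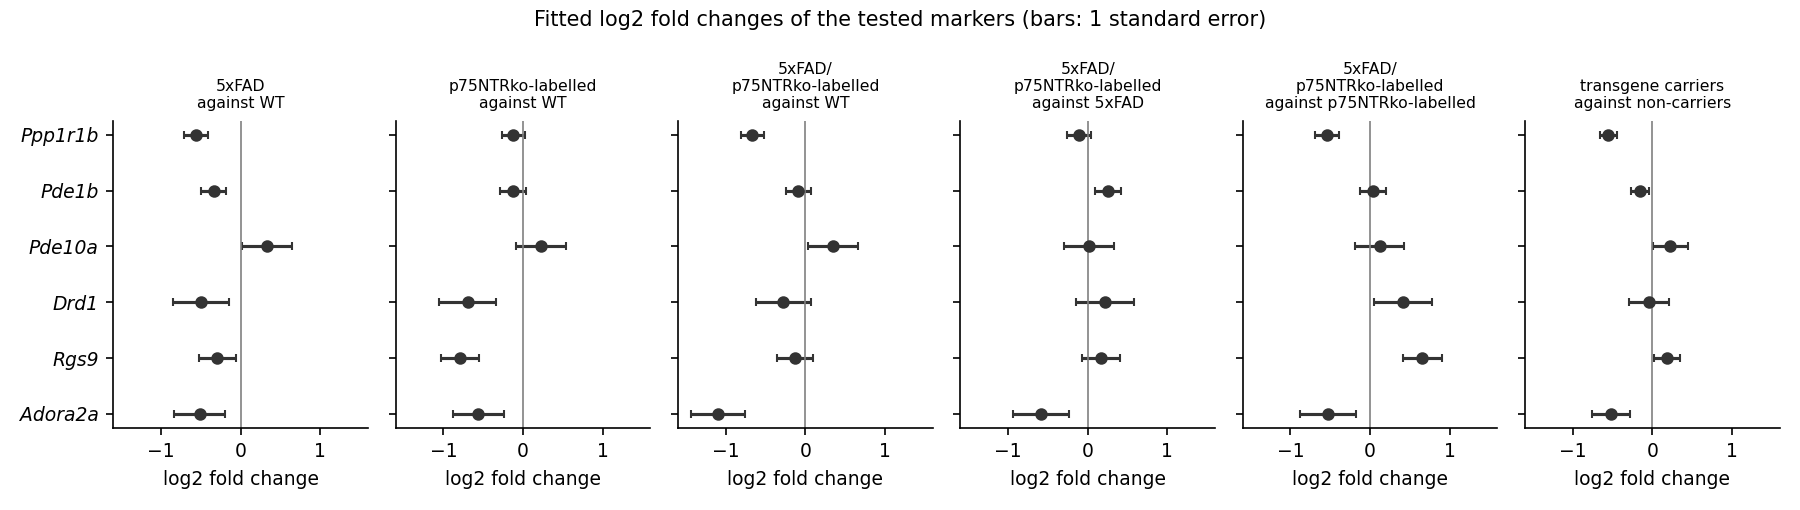
Log2 fold changes of the 6 tested markers from the edgeR fit (horizontal axis) in the comparisons between genotypes, with bars of 1 standard error. Ppp1r1b is at -0.56 and -0.54 in the pair of comparisons that add the transgenes, and Rgs9 is at -0.29 and 0.66 in the same pair.

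The markers did not move as a block from library to library. Over the 15 pairs of the 6 tested markers, Pearson's r of log2 CPM across the 12 libraries ran from -0.75 to 0.56 with a median of 0.09, and 9 of 15 were above 0. The 1 pair past an adjusted p of 0.05 had a negative sign: Drd1 and Pde10a, at r = -0.75 (permutation p = 0.00297, adjusted over 15 pairs 0.0446) and Spearman's rho = -0.66 (permutation p = 0.0242, adjusted 0.240). Drd1 was high in the libraries in which Pde10a was low, as in WT replicate 2 (16.7 and 9.41 CPM) and 5xFAD/p75NTRko-labelled replicate 3 (16.6 and 15.7 CPM). After genotype means were subtracted r was -0.74. Without WT replicate 2 and 5xFAD replicate 3, the libraries farthest from the Drd1 median, r was -0.71 and the adjusted permutation p was 0.174. Adora2a and Rgs9 gave r = -0.13 over all libraries and -0.80 after genotype means were subtracted, given as a description.

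**Figure D3:**
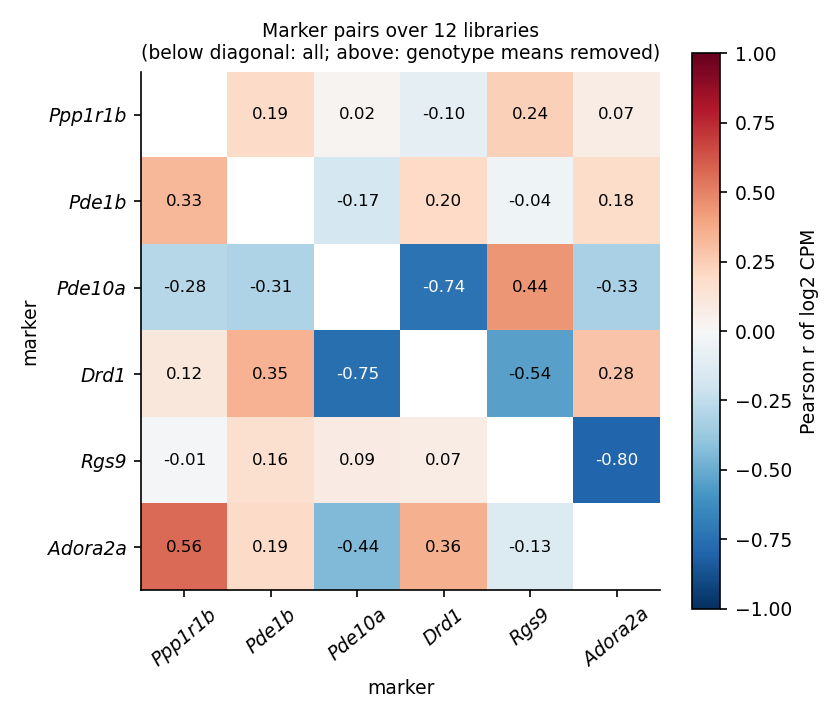
Pearson's r of log2 CPM for the 15 pairs of the 6 tested markers over 12 libraries, shown for all libraries and after subtraction of the genotype means. The values run from -0.75 (Drd1 and Pde10a) to 0.56 over all libraries.

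Summed levels of choroid plexus and thalamus markers differed several-fold between libraries, those of neocortex markers less, and no relation of a medium spiny neuron marker to these lists passed after adjustment. Choroid plexus markers (14 of 14 genes detected) summed to 2058 to 5183 CPM in WT, 173 to 1623 CPM in 5xFAD, 3969 to 6488 CPM in the p75NTRko-labelled libraries and 74.5 to 6376 CPM in the 5xFAD/p75NTRko-labelled ones. Thalamus markers (9 of 9 genes) summed to 358 to 603 CPM in WT, 221 to 266 CPM in 5xFAD, 203 to 246 CPM in the p75NTRko-labelled libraries and 164 to 707 CPM in the 5xFAD/p75NTRko-labelled ones. Neocortex markers (7 of 8 symbols in the table) summed to 170 to 251 CPM over all libraries. The mean log2 CPM of the 6 tested ran from 3.45 in 5xFAD replicate 3 to 4.74 in 5xFAD/p75NTRko-labelled replicate 3.

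Rgs9 was highest in 5xFAD/p75NTRko-labelled replicate 1 (10.7 CPM), the library with most thalamus RNA, but was 7.80 CPM in 5xFAD/p75NTRko-labelled replicate 2, the library with least. Against the mean log2 CPM of the thalamus genes, Rgs9 had r = 0.75 (permutation p = 0.00609) and rho = 0.77. Over the family of 30 relations between 6 markers and 5 lists, none passed after adjustment (0 of 30 by either coefficient, 6 of 30 with an unadjusted Pearson p under 0.05), and the adjusted p of this one was 0.0913. It was r = 0.59 after genotype means were subtracted and 0.53 without the 2 libraries farthest from the thalamus median. With the thalamus score as a term in the edgeR fit, added after the data were seen, the log2 fold change of Rgs9 in p75NTRko-labelled against WT was -0.46 (adjusted p = 0.672).

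Ppp1r1b showed the same coefficient with the choroid plexus list (r = 0.75, permutation p = 0.00524, adjusted 0.0913, rho = 0.66), at 0.62 after genotype means were subtracted and 0.55 without the 2 farthest libraries. By summed level the carriers were low in choroid plexus markers with 1 exception, 5xFAD/p75NTRko-labelled replicate 1, at 6376 CPM. Its Ppp1r1b was 38.0 CPM, at a mean log2 CPM of the list of 5.08. The non-carriers nearest in that mean were p75NTRko-labelled replicate 1 (5.11), WT replicate 3 (4.95) and p75NTRko-labelled replicate 3 (4.81). Their Ppp1r1b was 52.5, 52.3 and 51.4 CPM. The lowest non-carrier, p75NTRko-labelled replicate 2 (4.46), was at 38.2 CPM. By mean log2 CPM of the list, 5xFAD replicate 1 (3.49) also lay above WT replicate 1 (3.44). With the choroid plexus score as a term, the log2 fold change of Ppp1r1b in carriers was -0.39 (edgeR, adjusted p = 0.368), and with the thalamus score -0.53 (adjusted p = 0.0477). Drd1 had r = 0.62 with neocortex genes (permutation p = 0.0278, adjusted 0.166, rho = 0.72), and 0.49 without the 2 libraries farthest from the neocortex median. It had r = -0.68 with hippocampal principal neuron genes (adjusted permutation p = 0.115, rho = -0.71). With the medium spiny neuron genes outside the 7 markers, Ppp1r1b had r = 0.68 (permutation p = 0.0154, adjusted 0.115, rho = 0.64). This was 0.92 after genotype means were subtracted and 0.39 without the 2 farthest libraries. Adora2a had r = 0.59 with the same genes (permutation p = 0.0434, adjusted 0.217, rho = 0.62), and 0.17 after genotype means were subtracted. In bulk tissue, fewer cells of a type and less RNA per cell cannot be told apart, and the part that carried-along tissue had in these levels was not otherwise tested.

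**Figure D4:**
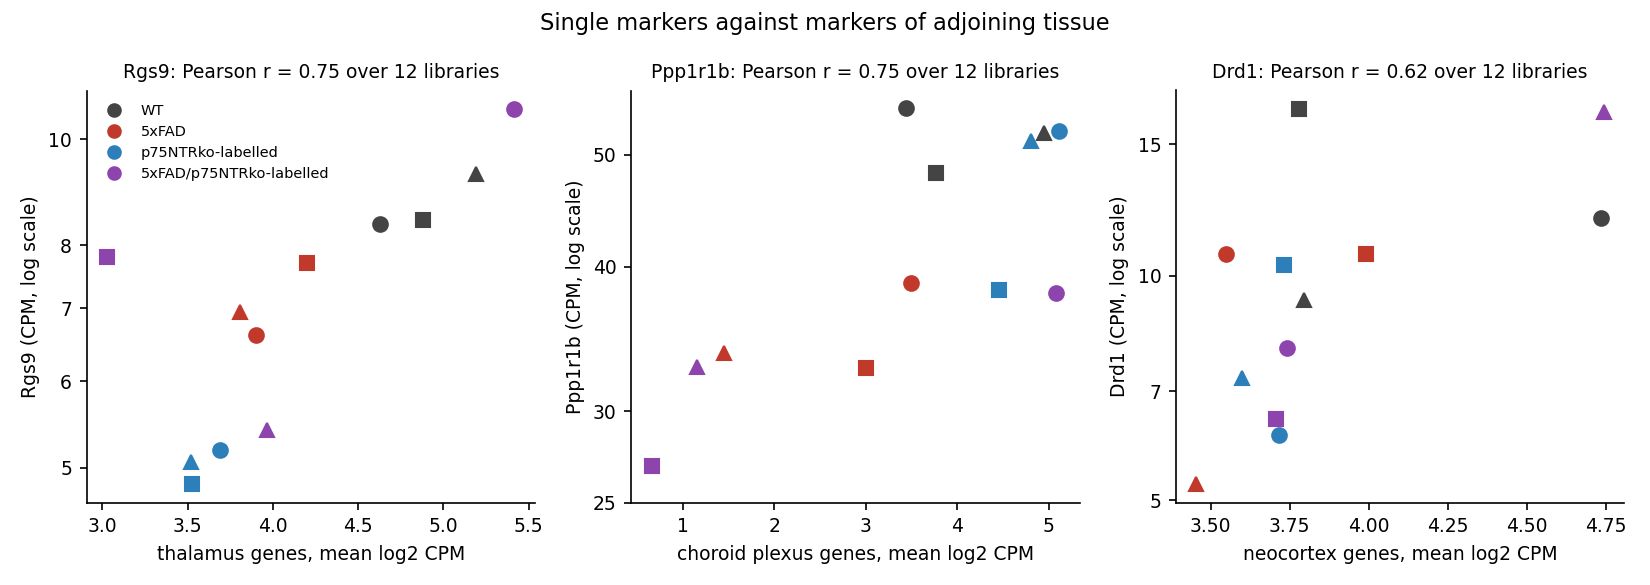
Rgs9, Ppp1r1b and Drd1 in CPM (vertical axes, log scale) against the mean log2 CPM of thalamus, choroid plexus and neocortex genes (horizontal axes), 1 point per library, coloured by genotype, with circles, squares and triangles for replicates 1, 2 and 3. Pearson's r is 0.75, 0.75 and 0.62, and the carrier at 38.0 CPM of Ppp1r1b with a high choroid plexus score is 5xFAD/p75NTRko-labelled replicate 1.

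For the other genes of medium spiny neurons most estimates against WT were below 0, and none passed. Of 21 such genes beyond the 7, 19 were tested and 0 passed in any comparison by edgeR. In the test of any difference 6 of the 19 had unadjusted p under 0.05, against 10.4% of all genes. Their estimates were below 0 for 14 of 19 in 5xFAD against WT, for 15 of 19 in p75NTRko-labelled against WT and for 14 of 19 in 5xFAD/p75NTRko-labelled against WT, with medians of -0.36, -0.52 and -0.23 on the log2 scale where the medians over all genes were within 0.01 of 0. The 3 comparisons share the WT libraries. Lists of other cells also had medians away from 0 in these comparisons: the median log2 fold changes were -0.93, -1.18 and -0.40 for 9 thalamus genes and 0.65, 0.67 and 0.41 for 7 hippocampal principal neuron genes, of which 7, 6 and 6 had estimates above 0, and none of either list passed. Their part in the medium spiny neuron values was not tested. For the 5 direct-pathway genes the estimates were below 0 in each of the 3 comparisons, with medians of -0.53, -0.78 and -0.46. Both tested indirect-pathway genes were also below 0 in each. The 12 genes shared by both pathways were mixed: 7, 8 and 7 estimates were below 0, with medians of -0.13, -0.48 and -0.13.

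The named genes of these lists spanned a wide range of levels. Tac1, which encodes substance P of the direct pathway, had a WT mean of 33.1 ± 4.88 CPM and a 5xFAD mean of 23.6 ± 4.90 CPM (SD, n = 3). Its p75NTRko-labelled mean was 19.95 ± 1.84 CPM and its 5xFAD/p75NTRko-labelled mean 25.5 ± 7.59 CPM (adjusted p = 0.401 in edgeR). Penk, which encodes the enkephalin of the indirect pathway, was at 98.2 ± 32.5, 62.1 ± 8.66, 52.7 ± 4.32 and 53.1 ± 7.11 CPM in the order WT, 5xFAD, p75NTRko-labelled, 5xFAD/p75NTRko-labelled (adjusted p = 0.144). The transcription factor Bcl11b, shared with hippocampal granule cells, had a higher mean in each other genotype than in WT, at 243 ± 47.0, 428 ± 59.5, 366 ± 24.9 and 315 ± 76.3 CPM in that order (adjusted p = 0.191). The transcription factors Isl1, Sp9 and Meis2 gave adjusted p-values of 0.522, 0.895 and 0.404 in the same test.

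Adora2a aside, the receptors listed for the indirect pathway were at or near 0. Like Drd2, and like 25.2% of all genes, the orphan receptor Gpr6 had 0 counts in all 12 libraries, and Gpr52 had 1 in all. Genes of the cells that supply dopamine to the striatum were low, with a summed level of 0.811 to 4.91 CPM. Over all libraries Th had 22 counts, Slc6a3 15, Pitx3 1 and Slc18a2 153, and Slc18a2 was counted in every library. Cholinergic neuron genes summed to 0.666 to 4.43 CPM, with Chat at 20 counts, Slc18a3 at 8 and Slc5a7, counted in every library, at 90. Slc18a2 and Slc5a7, the tested genes of these lists, gave adjusted p-values of 0.663 and 0.877 in the edgeR test of any difference.

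A list of 32 genes of dopamine and cyclic AMP signalling included G protein subunits, adenylyl cyclases, protein kinase A, phosphatases and further phosphodiesterases. Of these, 30 were tested and 0 passed in any comparison by edgeR. For any difference, 4 of 30 had an unadjusted p under 0.05, against 10.4% of all genes. Their median log2 fold changes were 0.04 in 5xFAD, -0.07 in the p75NTRko-labelled libraries and 0.03 in the 5xFAD/p75NTRko-labelled ones, each against WT. The smallest p-values were those of Ppp3ca, a calcineurin catalytic subunit, and Prkar1b, a regulatory subunit of protein kinase A (adjusted p = 0.437 and 0.366). Drd5, the other receptor of the Drd1 class, was at 20.3 ± 5.14 CPM over the 12 libraries (SD) and above Drd1 in 9 of them, while Drd3 had 0 counts.

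The genes most like each marker across the 12 libraries, by Pearson's r of log2 CPM over 13064 genes and without a test, differed from marker to marker. Drd1 was most like Necab1, Qrfpr and Gng4 (r = 0.92, 0.91 and 0.90), and Adora2a was most like Spg20, Ppp6r1 and Panct2 (0.90, 0.87 and 0.85). Rgs9 was most like Camsap3, Glra1 and Shox2 (0.87, 0.86 and 0.85). Pde10a was most like Arid1b, Epdr1 and Aldh3a2, each at 0.96. Ppp1r1b was most like Trp53inp2, Eif4g2 and H2afv, each at 0.91, and Pde1b was most like Rltpr, Dbndd1 and B4galt5 (0.88, 0.87 and 0.84).

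Both Ppp1r1b and Rgs9 are on chromosome 11, as is Ngfr (chr11:95568818-95587735), at 2.76 Mb and 13.6 Mb from it. Within 1 Mb of Ppp1r1b, 42 genes were tested, and Med1 and Msl1 passed in the comparison of receptor-labelled libraries with the rest, at log2 fold changes of 0.76 (adjusted p = 0.0113) and -0.38 (adjusted p = 0.0338) in edgeR. Ppp1r1b itself was at 39.95 CPM on average in the receptor-labelled libraries and 43.4 CPM in the others.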

How the data were processed

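Raw counts of reads per gene symbol in 12 hippocampal libraries were used as deposited. Per the labels' protocols, QuantSeq 3′ FWD libraries came from Trizol RNA of integrity number over 7, by 14 cycles of amplification, and share 1 batch label. FastQC, HISAT2, SAMtools, HTSeq, edgeR and the mm10 build are named in the submitters' processing notes; which versions and gene annotation were used, and whether strand was, is not given in the sources used here. The 5 summary lines of the table were left out: they held reads outside genes (28.9% to 33.5%), unaligned reads (18.6% to 25.4%), multiply aligned reads (9.57% to 12.1%) and ambiguous reads (0.226% to 0.291%). Gene counts made up the other 32.2% to 38.5%, so genes with near-identical copies may be undercounted. Gene positions and 3′ ends come from GENCODE M21 on GRCm38, the same assembly as mm10, matched by symbol for 7 of 7 markers.

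The tests used edgeR 4.0.16 under R 4.3.3. Low genes were removed by filterByExpr and TMM factors lay between 0.975 and 1.03. The quasi-likelihood model gave each genotype its own mean, and all 12 libraries shared an estimate of the spread (common biological coefficient of variation 13.8%). Benjamini-Hochberg adjustment ran over the 13065 genes tested, at a threshold of 0.05. A standard error is the size of the log2 fold change over the square root of F. Log2 CPM used a prior count of 2. Correlations used 100000 permutations, two-sided, adjusted within each family; Drd2 at 0 left 15 marker pairs and 30 relations with lists. The fit was tested on simulated data. Intervals and limits cover counting error only, because the libraries have no molecular identifiers and amplified copies count as reads. No 2 libraries differed by as little as sampling noise (chi-square per degree of freedom of 2.94 for the closest pair).

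The markers, gene lists and comparisons were chosen with earlier results of these data known. Named are the 7 markers, for each list the genes past the threshold and the 2 with the smallest p for any difference among genotypes, the 3 genes most like each marker, the genes that check the labels, and genes within 1 Mb of a marker that passed. The comparisons of carriers with non-carriers and of receptor-labelled libraries with the rest, and the choroid plexus and thalamus scores as terms, were added after the values were seen. Alternatives were DESeq2 1.42.0, other filters and prior counts, subsets of genotypes, Xist class as a term, the replicate block, and leaving out each library.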

Additional observations from a re-analysis of the deposited data

Results flagged for a closer look

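Rgs9 differed in sign between the transgene comparisons made with and without the receptor label. All 3 5xFAD libraries (6.62 to 7.70 CPM) lay below all 3 WT libraries (8.37 to 9.29 CPM), as for 9.02% of genes. All 3 5xFAD/p75NTRko-labelled libraries (5.41 to 10.7 CPM) lay above all 3 p75NTRko-labelled libraries (4.83 to 5.19 CPM), as for 6.54% of genes. The difference between the log2 fold changes was 0.95, with an unadjusted p of 0.0124 and an adjusted p of 0.427 in edgeR, so the test of the difference itself did not pass. With the thalamus score as a term it was 0.56. Sex and genotype coincided in 5xFAD against WT, so their parts in this difference cannot be told apart. No group of 4 or more libraries was available for a test of single outlying libraries.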

How the results depend on the processing

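Over 31 results on single markers and 520 alternatives, 502 kept their direction and side of the threshold, 10 turned sign, 7 passed the threshold and 1 fell back from it. The number of markers called was 0 in edgeR and 1, always Ppp1r1b, under DESeq2 (5xFAD/p75NTRko-labelled against WT, any difference among genotypes, carriers against non-carriers), without the filter on low counts (any difference, carriers) and with the thalamus score as a term (carriers). Leaving out single libraries gave 0 to 1 markers in carriers against non-carriers, the 1 being Ppp1r1b without 5xFAD/p75NTRko-labelled replicate 1. Its adjusted p for carriers ran from 0.00171 to 0.368 over all alternatives. The pairs of markers past the threshold went from 1 to 0 without the 2 farthest libraries. Estimates of Ppp1r1b near 0 turned sign: in p75NTRko-labelled against WT, 0.019 with Xist class and 0.11 with the thalamus score as a term and -0.20 to 0.0043 with single libraries left out; for the interaction, -0.34, -0.26 and -0.11 to 0.14. The cause was not tested.

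Replicate numbers did not pair the libraries: over 18 same-numbered pairs, r of deviations from genotype means ran from -0.42 to 0.14, and 2 exceeded 0.1. With the replicate number as a block, 0 markers were called in every comparison, and 1 gene in all was called in 5xFAD against WT.

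Counts over all genes moved by over 1.5 times: in 5xFAD against WT, 7 in edgeR, 97 in DESeq2 and 44 without the filter; for any difference, 13, 181 and 81; for carriers, 2, 74 and 17; for p75NTRko-labelled against WT, 0, 56 and 46. Depth limits Adora2a most, at 9 to 41 counts per library, and Drd2, whose pooled limit was 0.0437 CPM.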

Other observations

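The named genes of the tissue lists gave these adjusted p-values for any difference among the 4 genotypes by edgeR: 0.270 for Neurod6 and 0.376 for Spink8 of hippocampal principal neurons, 0.638 for Calb2 and 0.691 for Nmb of hilar mossy cells, and 0.525 for Cldn2 and 0.524 for Clic6 of choroid plexus. For Ramp3 and Tnnt1 of thalamus they were 0.173 and 0.298, and for Rorb and Cux2 of neocortex 0.248 and 0.498. In the same test, 10.4% of all genes had an unadjusted p under 0.05. Such p-values were found for 4 of 7 hippocampal principal neuron genes, 5 of 9 thalamus genes and 1 of 6 neocortex genes tested. They were found for 0 of 3 hilar mossy cell genes tested and 0 of 14 choroid plexus genes.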
